A study of Mus musculus with 8 samples.

Results

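Genes for corepressor, Polycomb, chromatin remodelling, DNA methylation and histone acetylation proteins were examined in pre-BII cells lacking the zinc-finger factor Aiolos, the B cell coactivator OBF-1, or both. The 47 genes were taken from a fixed list of names, not by a rule on measured values, but with earlier results of these data known. Of them 43 were analysed, out of 12393 genes in all. Chd3, Ncor1, Suv39h1 and Ep300 were not analysed here. The arrays were Affymetrix MOE430A GeneChips, which read each transcript with 1 or more sets of short probes. The Aiolos/OBF-1 double mutant, both single mutants (Aiolos and OBF-1) and the wild type had 2 arrays each, from mice of a Bl6 background that were 7 weeks old, 8 arrays in all. Per the study's methods each array held RNA of B220+ CD25+ bone marrow cells sorted from an independent pool of 8 mice, while the labels name bone marrow only and, for the mutants, a single mouse. The mutants were Aiolos-/- and OBF-1-/- mice, so that a factor was also missing at every stage before the one measured.

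The Ikaros family, to which Aiolos belongs, binds DNA and is known to bring corepressor complexes to its targets, in particular NuRD, which joins a helicase-type remodeller (Chd3 or Chd4) to the deacetylases Hdac1 and Hdac2, and the Sin3 complex. Polycomb group proteins repress in another way: PRC2 methylates lysine 27 of histone H3 and PRC1 binds that mark and ubiquitylates histone H2A. SWI/SNF and ISWI remodellers move nucleosomes, DNA methyltransferases place and copy CpG methylation, and HP1 proteins bind methylated lysine 9 of histone H3. OBF-1 works through the octamer-binding factors Oct1 and Oct2. The pre-BII stage, between assembly of the heavy chain and of the light chain genes, begins with fast division and ends in small resting cells.

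The 43 genes fell into 11 NuRD subunits, 2 Sin3 scaffolds, 5 genes for Hdac3, the class IIa deacetylases and the CtBP corepressors, 4 PRC2 and 6 PRC1 subunits, 7 SWI/SNF and ISWI subunits, 3 DNA methyltransferases, 3 genes for lysine 9 methylation and HP1, and 2 acetyltransferases. Each gene was read with 1 probe set, that of the highest mean signal, and 31 of the 43 had more than 1. Intensities are linear and in arbitrary units, so they were compared between genotypes and never between genes. A difference is given as log2 of the ratio, and was called when limma, which fits all probe sets together and moderates their variances, gave a Benjamini-Hochberg adjusted p under 0.05 over 22626 probe sets. Of the 43, 38 averaged at least 100 units over the 8 arrays, as did 5966 of all 12393 genes, each read with its brightest probe set. Hdac2, Ctbp2, Bmi1, Cbx7 and Dnmt3b lay below.

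The array signals fitted the labels where they could be checked. Pou2af1, which encodes OBF-1, had 170 and 273 units in double-mutant, 241 and 236 in OBF-1 single-mutant, 2434 and 2842 in Aiolos single-mutant and 2761 and 2678 in wild type cells. Ikzf3, which encodes Aiolos, was not analysed here. Of 10 pre-BII markers measured, 9 exceeded 100 units on at least 1 array, and Pax5 did not on any. The pre-BII markers moved with genotype too: in the double mutant Vpreb1, Igll1, Rag2 and Il2ra were called higher and Cd79b and Ebf1 lower. Il2ra, which encodes the sort marker CD25, was 0.66 higher in double-mutant and 0.60 in OBF-1 single-mutant cells (limma adjusted p = 0.00203 and 0.0116), while Ebf1 was lower by -0.51 in double-mutant and -0.58 in Aiolos single-mutant cells (adjusted p = 0.0177 and 0.0297). The 9 granulocyte and monocyte markers summed to 28810 and 29420 units in double-mutant, 26510 and 27330 in Aiolos single-mutant, 28730 and 32560 in OBF-1 single-mutant and 23350 and 23580 in wild type samples, and each of the 9 was over 100 units on every array. Of them, 6 were called higher in double-mutant and 4 in OBF-1 single-mutant cells. Of 4 erythroid markers Klf1 was called higher in double-mutant and OBF-1 single-mutant cells (0.69 and 0.89), as was Sdc1 of 4 plasma cell markers (0.98 and 0.84). None of 5 T cell and 3 NK cell markers was called in a mutant, and 4 of the 5 and 2 of the 3 stayed under 100 units on every array. The part of these markers and of other cells in the results below was not tested, and in a sorted population fewer cells of a type and less RNA per cell cannot be told apart. The arrays of wild type and of OBF-1 single-mutant cells went through fluidics station 2 and the others through station 1, so the effect of OBF-1 loss was measured within a station, whereas Aiolos loss and station cannot be told apart.

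Most of the 43 genes differed little in any genotype. Against wild type, 5 were called in double-mutant cells (11.6%, against 9.03% of all genes), of which 4 were higher (background 4.9%) and 1 was lower (background 4.13%). In Aiolos single-mutant cells 1 was called (2.33%, background 1.78%), and in OBF-1 single-mutant cells none was (background 2.28%). An unadjusted p under 0.05 was reached by 15 genes in double-mutant cells (34.9%, against 21.4% of all genes), by 10 in Aiolos single-mutant cells (23.3%, against 19.0%) and by 5 in OBF-1 single-mutant cells (11.6%, against 14.0%). Among genes averaging at least 100 units, 4 of 38 were called in the double mutant, a share of 10.5%, against 14.5% of all such genes. The share called after adjustment was thus near that of the array as a whole, and the share at an unadjusted p under 0.05 was above it in the double mutant. Unadjusted shares were not counted among genes averaging at least 100 units, so this excess cannot be read as particular to the 43. Without moderation of variances none of the 43 was called in any comparison. The share of all genes was not counted under that setting, so this says nothing particular to the 43. Their median log2 difference was 0.05 in double-mutant, -0.05 in Aiolos single-mutant and 0.01 in OBF-1 single-mutant cells, against 0.01, 0.04 and 0.03 over all genes. With the sign left out, the medians in the same order were 0.176, 0.145 and 0.087, against 0.112, 0.119 and 0.098 over all genes. These medians, too, were not taken among genes averaging at least 100 units. For the probe set read of each gene, intervals from the moderated variances bounded the measured difference of what was not called. In double-mutant and Aiolos single-mutant cells that difference holds genotype and station together. In the double mutant the 95% interval of each of the 38 uncalled genes lay within a 2-fold change, and 36 lay within 1.5-fold. In the Aiolos single mutant all 42 uncalled genes lay within 2-fold and 38 within 1.5-fold, and in the OBF-1 single mutant all 43 and 41 did. These bounds do not cover the other probe sets of a gene. Some of those were called in the double mutant, among them probe sets of Smarce1, Chd4 and Dnmt3a that are given below. A dimmer Cbx1 probe set also stood apart, at 193 and 227 units in double-mutant against 293 and 276 in wild type cells.

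**Figure D1:**
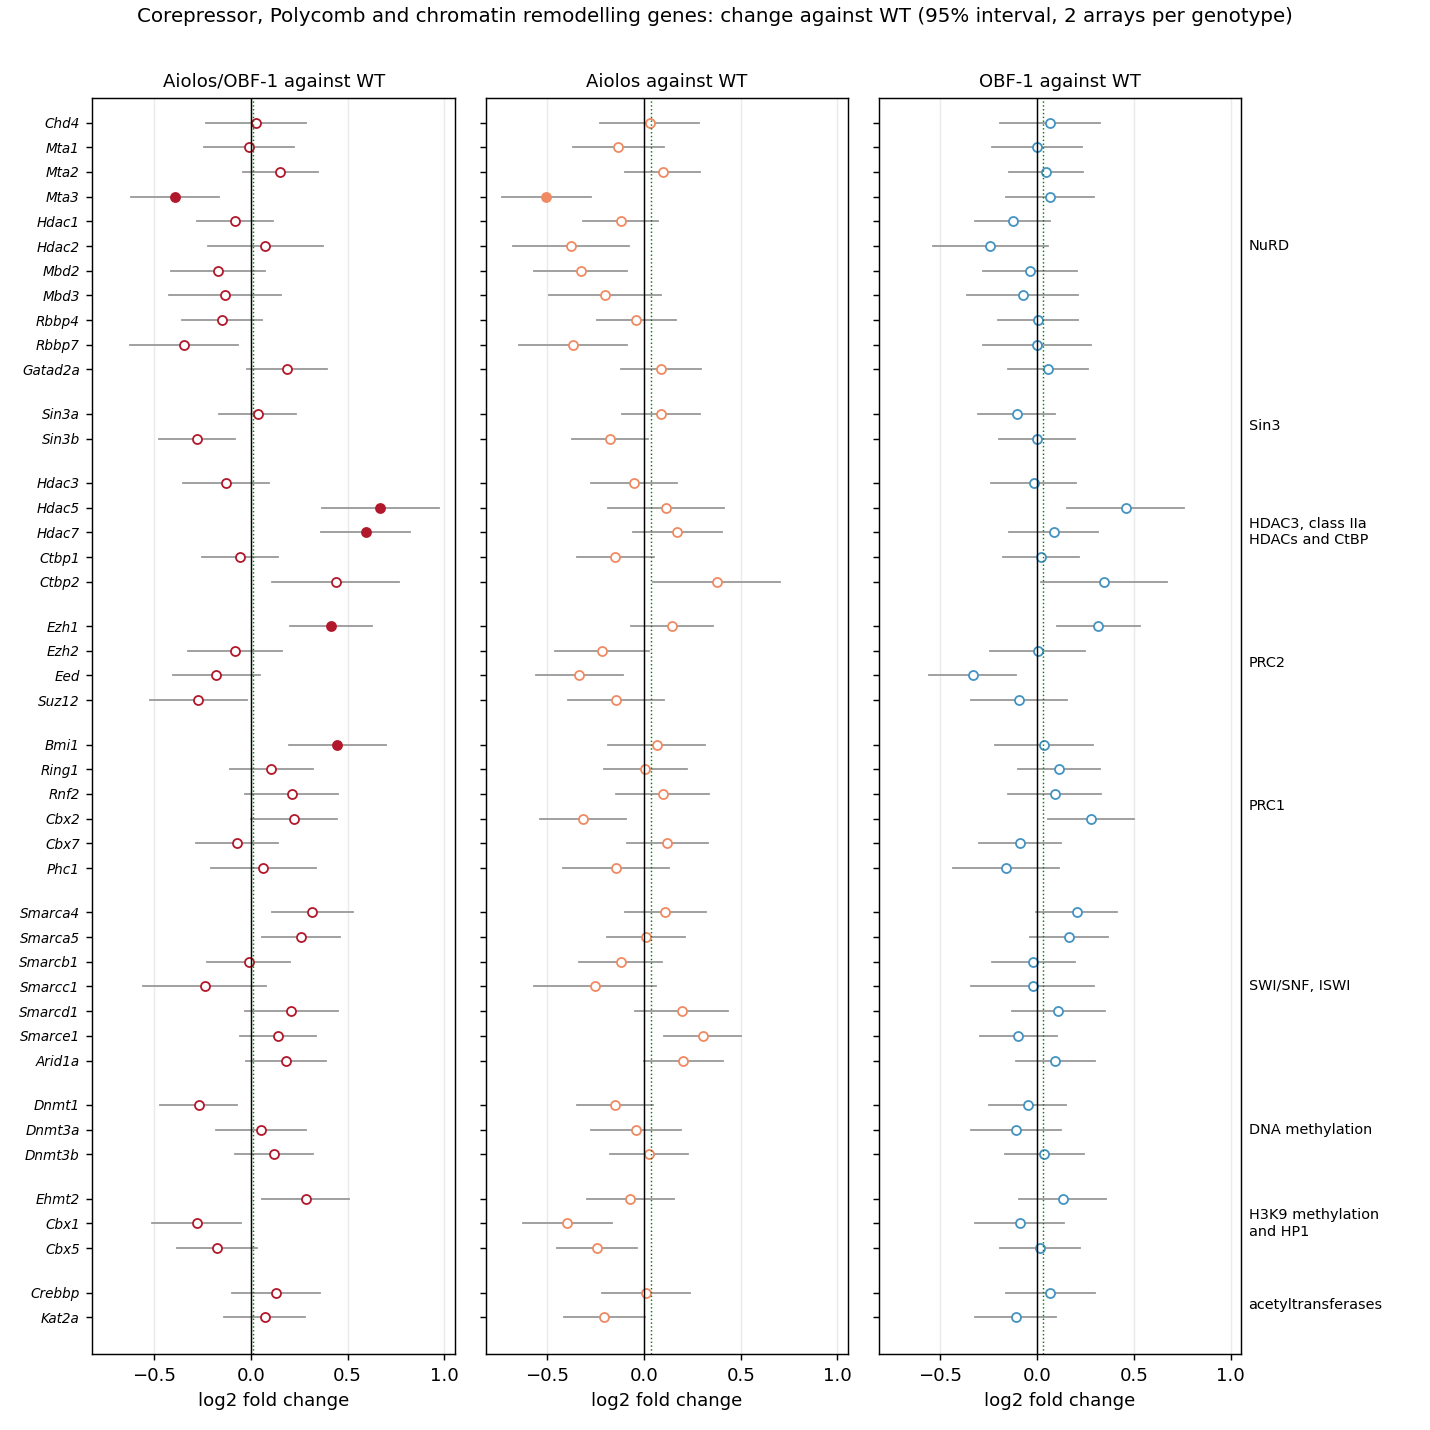
Log2 fold change against wild type (x axis) of the 43 genes (y axis, grouped by complex) in Aiolos/OBF-1 double-mutant, Aiolos single-mutant and OBF-1 single-mutant cells; lines are 95% intervals, filled points were called and the dotted line is the median of all 12393 genes. Filled points are Mta3, Hdac5, Hdac7, Ezh1 and Bmi1 in the double mutant and Mta3 in the Aiolos single mutant.

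Among the NuRD genes the exception was Mta3, which encodes a metastasis-associated subunit that scaffolds the deacetylases and is known for its role in germinal centre B cells. Mta3 read 213 and 215 units in double-mutant, 194 and 201 in Aiolos single-mutant, 267 and 323 in OBF-1 single-mutant and 289 and 272 in wild type cells. All 4 arrays lacking Aiolos lay below all 4 arrays that had it. The log2 difference was -0.50 (95% interval -0.73 to -0.28, limma adjusted p = 0.0369) in Aiolos single-mutant and -0.39 (-0.62 to -0.16, adjusted p = 0.039) in double-mutant cells against wild type. Against OBF-1 single-mutant cells, Mta3 in the double mutant differed by -0.46 (limma adjusted p = 0.0426), a call kept in 1 of 8 fits that left out 1 array (adjusted p up to 0.281) and lost in all but the one without OBF-1 replicate 1. The second Mta3 probe set gave the same picture, with 96.8 and 81.3 units in double-mutant, 87.5 and 102 in Aiolos single-mutant, 131 and 146 in OBF-1 single-mutant and 137 and 144 in wild type cells. Its log2 differences against wild type were -0.66 in double-mutant and -0.57 in Aiolos single-mutant cells (limma adjusted p = 0.00386 and 0.0344). The suffix of the probe set read for Mta3 marks probes that may cross-hybridise with other transcripts, and that of the second does not. In the Aiolos single mutant the call of the brighter probe set was lost under quantile normalization (limma adjusted p = 0.0541), and when any 1 of the 4 arrays compared was left out (up to 0.234). In the double mutant it was kept in 2 of 8 fits that left out 1 array, and lost when any 1 array of these genotypes or of the Aiolos single mutant was left out (up to 0.188).

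The other 10 NuRD genes were not called against wild type in any mutant. Chd4, the helicase of the complex in lymphocytes, had 783 and 684 units in double-mutant, 732 and 734 in Aiolos single-mutant, 685 and 825 in OBF-1 single-mutant and 774 and 667 in wild type cells. Its genotypes overlapped, and its difference in the double mutant was 0.03 with an interval of -0.23 to 0.28. A dimmer Chd4 probe set, at a mean of 87.7 units, was called lower, by -0.48 in double-mutant and -0.55 in Aiolos single-mutant cells (limma adjusted p = 0.0302 and 0.0442), so the probe sets of this gene did not give 1 answer. Hdac1, the class I deacetylase shared by NuRD and Sin3, read 775 and 760 units in double-mutant, 751 and 745 in Aiolos single-mutant, 714 and 777 in OBF-1 single-mutant and 809 and 816 in wild type cells. The mutant arrays were all below the wild type arrays, yet by little: the intervals of its differences reached no further than -0.32. Hdac2, the partner of Hdac1, was dim at 76.2 and 86.5 units in double-mutant, 53.6 and 65.6 in Aiolos single-mutant, 72.9 and 58.2 in OBF-1 single-mutant and 82.8 and 71.6 in wild type cells. It was lowest where only Aiolos was missing, at a difference of -0.38 against wild type that did not pass (limma adjusted p = 0.173). Rbbp7, a histone-binding subunit shared by NuRD, Sin3 and PRC2, had 429 and 482 units in double-mutant, 438 and 459 in Aiolos single-mutant, 515 and 646 in OBF-1 single-mutant and 527 and 632 in wild type cells. The arrays lacking Aiolos were again the lower ones, at -0.34 in double-mutant and -0.37 in Aiolos single-mutant cells, and neither difference passed (limma adjusted p = 0.133 and 0.158). A second Rbbp7 probe set gave 0.02 in double-mutant and -0.16 in Aiolos single-mutant cells.

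Neither Sin3 scaffold was called. Sin3a had 589 and 581 units in double-mutant, 629 and 585 in Aiolos single-mutant, 515 and 546 in OBF-1 single-mutant and 588 and 554 in wild type cells, with differences from -0.11 to 0.09 against wild type. Sin3b had 782 and 818 units in double-mutant, 887 and 832 in Aiolos single-mutant, 952 and 990 in OBF-1 single-mutant and 951 and 990 in wild type cells. Its arrays without Aiolos lay below the others, and the difference of -0.28 in the double mutant missed the threshold (limma adjusted p = 0.0845).

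Hdac5 and Hdac7, the class IIa deacetylases in the list, were higher in the double mutant, with different patterns over the genotypes. These enzymes bind MEF2 factors, shuttle between nucleus and cytoplasm under control of phosphorylation, and repress largely by recruiting Hdac3. Hdac5 had 1760 and 1488 units in double-mutant, 1223 and 988 in Aiolos single-mutant, 1467 and 1329 in OBF-1 single-mutant and 1133 and 913 in wild type cells. The 4 arrays lacking OBF-1 all lay above the 4 that had it, and the double mutant against wild type gave a log2 difference of 0.67 (95% interval 0.37 to 0.97, limma adjusted p = 0.01), a 1.59-fold level. The call was lost without wild type replicate 2 or double-mutant replicate 1 (limma adjusted p up to 0.105). Hdac5 was also 0.46 higher in OBF-1 single-mutant against wild type cells, which did not pass (limma adjusted p = 0.141). Hdac7, which is expressed in thymocytes and B cell precursors and is known to silence genes of other lineages in early B cells, had 1442 and 1299 units in double-mutant, 1035 and 1009 in Aiolos single-mutant, 923 and 1003 in OBF-1 single-mutant and 980 and 838 in wild type cells. Only the double mutant stood apart: its arrays were the highest of the 8, at 0.60 above wild type (0.37 to 0.83, limma adjusted p = 0.00406) and 0.51 above the OBF-1 single mutant (adjusted p = 0.0266). The call against wild type was lost only without wild type replicate 2 (limma adjusted p = 0.0514), and that against the OBF-1 single mutant without either OBF-1 array or double-mutant replicate 1 (up to 0.167). A second Hdac7 probe set read 447 and 378 units in double-mutant, 263 and 237 in Aiolos single-mutant, 286 and 256 in OBF-1 single-mutant and 286 and 205 in wild type cells. It was called against wild type (0.76, limma adjusted p = 0.00707) and against the Aiolos single mutant within 1 station (0.72, adjusted p = 0.0208), where the brighter probe set gave 0.42 (adjusted p = 0.0579). Hdac3 and Ctbp1 were not called in any mutant. Ctbp2, at a mean of 30.3 units, was above wild type by 0.44 in double-mutant and 0.38 in Aiolos single-mutant cells without passing, and 1 wild type array at 20.0 units stood below the other 7. The second Ctbp2 probe set was 0.66 above the Aiolos single mutant in the double mutant (limma adjusted p = 0.022).

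**Figure D2:**
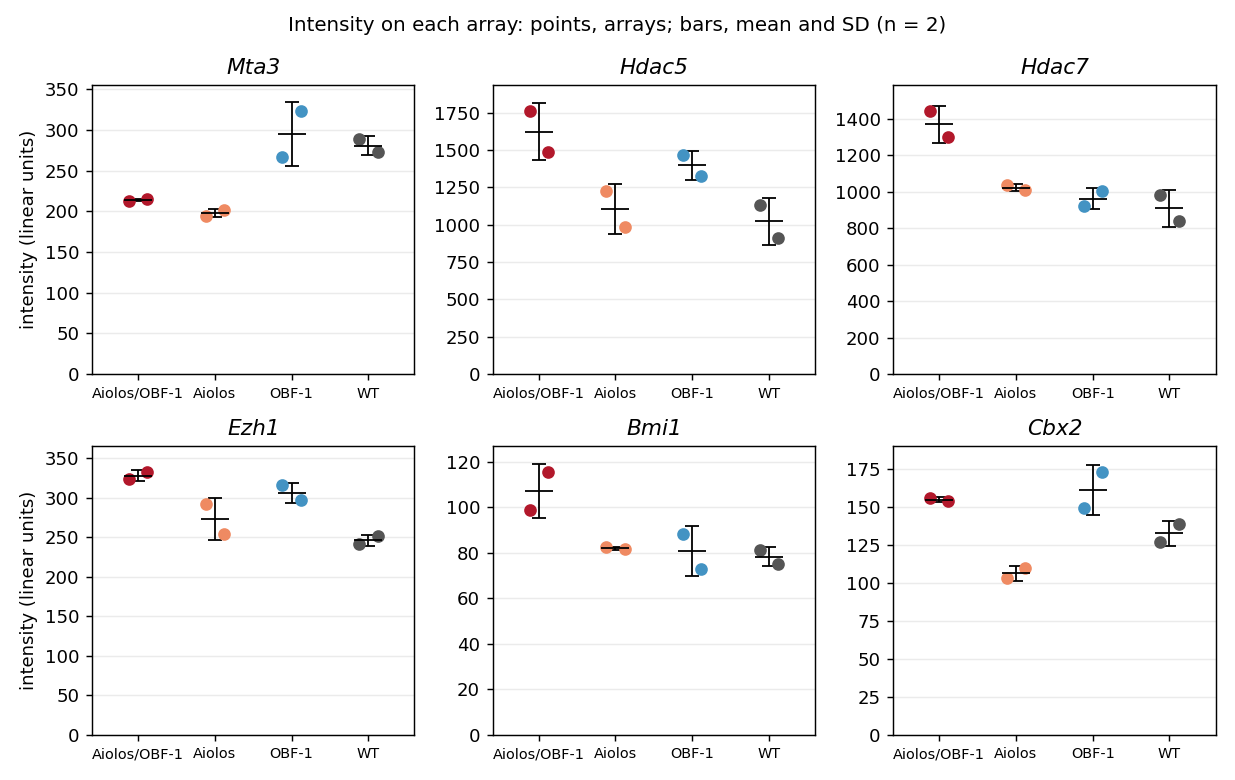
Intensity in linear units (y axis, from 0) of Mta3, Hdac5, Hdac7, Ezh1, Bmi1 and Cbx2 on each array of the 4 genotypes (x axis); points are arrays, bars are the mean and SD of 2 arrays. Mta3 is at 194 to 215 units on the 4 arrays lacking Aiolos against 267 to 323 on the others, and Hdac7 is at 1299 and 1442 units in the double mutant, above its 6 other arrays.

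Both Polycomb complexes held 1 gene that was higher in the double mutant. In PRC2, Ezh1, the methyltransferase known to predominate in resting cells, had 323 and 333 units in double-mutant, 292 and 254 in Aiolos single-mutant, 315 and 298 in OBF-1 single-mutant and 241 and 251 in wild type cells. The double-mutant arrays were the highest and the wild type arrays the lowest, with a difference of 0.41 (95% interval 0.20 to 0.63, limma adjusted p = 0.0211). The call was lost when any 1 of the 4 arrays compared was left out (limma adjusted p up to 0.119). Its dim second probe set gave 0.30 (adjusted p = 0.0807). Ezh2, the methyltransferase of dividing cells, had 996 and 1161 units in double-mutant, 941 and 1018 in Aiolos single-mutant, 1057 and 1230 in OBF-1 single-mutant and 1183 and 1094 in wild type cells. Its genotypes overlapped, and the interval in the double mutant was -0.33 to 0.16. Eed, which reads the mark that PRC2 writes, had 321 and 343 units in double-mutant, 282 and 314 in Aiolos single-mutant, 280 and 317 in OBF-1 single-mutant and 389 and 362 in wild type cells. It was -0.33 in either single mutant against wild type, and neither passed (limma adjusted p = 0.121 for Aiolos and 0.155 for OBF-1). Suz12, the PRC2 scaffold, was -0.27 in the double mutant and did not pass, and its dimmer probe sets did not all share that direction.

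In PRC1, Bmi1, a RING finger subunit that represses the cell cycle inhibitor locus Cdkn2a and is needed by lymphoid progenitors, had 98.8 and 116 units in double-mutant, 82.3 and 81.5 in Aiolos single-mutant, 88.5 and 72.9 in OBF-1 single-mutant and 81.4 and 75.3 in wild type cells. The double-mutant arrays exceeded all others, by 0.45 against wild type (0.20 to 0.70, limma adjusted p = 0.0322). The second Bmi1 probe set had 63.7 and 95.3 units in double-mutant, 49.7 and 44.6 in Aiolos single-mutant, 54.3 and 57.4 in OBF-1 single-mutant and 53.3 and 52.7 in wild type cells. It was called at 0.56 against wild type (limma adjusted p = 0.0421) and 0.73 against the Aiolos single mutant (adjusted p = 0.0238). Both are low signals, and the brighter probe set missed the threshold under quantile normalization (limma adjusted p = 0.0537) and median centring (0.0523), or without either wild type array or double-mutant replicate 2 (up to 0.183). Cbx2, a chromodomain subunit that reads the PRC2 mark, had 156 and 154 units in double-mutant, 103 and 110 in Aiolos single-mutant, 149 and 173 in OBF-1 single-mutant and 127 and 138 in wild type cells. Its order was low without Aiolos alone and high without OBF-1, and the double mutant was 0.54 above the Aiolos single mutant (0.32 to 0.76, limma adjusted p = 0.0124), while no mutant was called against wild type. The call was lost when any 1 of the 4 arrays compared was left out (limma adjusted p up to 0.104). The dimmer Cbx2 probe set, at a mean of 38.1 units, gave 0.10 in that comparison (adjusted p = 0.699). Ring1, Rnf2, Cbx7 and Phc1 were not called in any mutant.

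The sequences before the start sites of the 4 genes higher in the double mutant are shown so that the motifs of both factors can be looked for. The windows are those of RefSeq on GRCm38.p6, run from 250 bases before to 50 after an annotated start and are written 5′ to 3′ on the gene's strand. Capitals mark the Ikaros family core TGGGAA or its reverse complement TTCCCA. The octamer ATGCAAAT and its reverse complement ATTTGCAT, which do not overlap the other motif, were searched too and occur in none of the windows of these 4 genes. Hdac5 (chr11:102230123-102230422, minus strand) and Ezh1 (chr11:101226414-101226713, minus strand) hold neither motif, Bmi1 (chr2:18676768-18677067, plus strand) holds the core at -246, and of 4 Hdac7 windows the one printed (chr15:97844453-97844752, minus strand) holds it at -84.
Hdac5: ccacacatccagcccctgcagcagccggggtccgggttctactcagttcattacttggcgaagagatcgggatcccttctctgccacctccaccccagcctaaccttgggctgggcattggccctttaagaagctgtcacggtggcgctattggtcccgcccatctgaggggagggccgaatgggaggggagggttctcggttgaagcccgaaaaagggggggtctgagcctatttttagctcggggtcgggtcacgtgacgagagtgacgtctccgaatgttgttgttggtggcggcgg
Hdac7: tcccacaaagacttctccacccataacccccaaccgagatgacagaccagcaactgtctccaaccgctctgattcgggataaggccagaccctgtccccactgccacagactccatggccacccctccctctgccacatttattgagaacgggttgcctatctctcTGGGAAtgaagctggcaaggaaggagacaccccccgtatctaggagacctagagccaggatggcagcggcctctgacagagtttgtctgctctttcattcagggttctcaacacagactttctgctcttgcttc
Ezh1: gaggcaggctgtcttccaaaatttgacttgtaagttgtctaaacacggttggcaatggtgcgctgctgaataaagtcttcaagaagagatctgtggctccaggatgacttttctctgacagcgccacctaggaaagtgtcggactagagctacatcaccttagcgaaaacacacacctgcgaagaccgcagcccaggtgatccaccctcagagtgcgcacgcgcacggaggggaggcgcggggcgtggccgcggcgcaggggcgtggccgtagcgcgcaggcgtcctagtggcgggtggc
Bmi1: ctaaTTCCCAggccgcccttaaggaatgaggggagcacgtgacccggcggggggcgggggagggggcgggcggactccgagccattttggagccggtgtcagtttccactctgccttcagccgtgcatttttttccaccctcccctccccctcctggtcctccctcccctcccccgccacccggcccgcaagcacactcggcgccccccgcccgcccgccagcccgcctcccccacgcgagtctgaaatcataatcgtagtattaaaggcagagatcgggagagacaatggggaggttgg
The core stood in 8397 of 32851 windows of all genes (25.6%) and in 11 of 51 windows of 37 of the chromatin genes (21.6%). The octamer stood in 570 (1.74%) and in 1 of the 51 (1.96%). A match of letters is not a binding site, and the arrays hold no measure of binding.

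No SWI/SNF or ISWI subunit was called against wild type. Smarca4, the Brg1 ATPase of SWI/SNF, had 5641 and 5248 units in double-mutant, 4889 and 4539 in Aiolos single-mutant, 5136 and 4920 in OBF-1 single-mutant and 4584 and 4153 in wild type cells. The double-mutant arrays were the highest, and the difference of 0.32 against wild type missed the threshold (limma adjusted p = 0.0651). A second Smarca4 probe set was called lower with Aiolos loss averaged over both states of OBF-1 (-0.36, limma adjusted p = 0.0359), where the brighter one gave 0.11. Smarca5, the ISWI ATPase, was 0.26 in the double mutant and did not pass (limma adjusted p = 0.12). Smarce1, an HMG-domain subunit, gave opposite answers with its probe sets. The brighter one had 488 and 476 units in double-mutant, 528 and 553 in Aiolos single-mutant, 421 and 397 in OBF-1 single-mutant and 453 and 422 in wild type cells, a difference of 0.30 in the Aiolos single mutant that did not pass (adjusted p = 0.111). The other had 254 and 250 units in double-mutant, 252 and 271 in Aiolos single-mutant, 445 and 392 in OBF-1 single-mutant and 515 and 454 in wild type cells. It was called lower, at -0.94 in double-mutant and -0.89 in Aiolos single-mutant cells (limma adjusted p = 0.000133 and 0.00226). No statement on the level of Smarce1 transcript can therefore be made from these arrays.

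Of the DNA methyltransferases, Dnmt1, which copies methylation after replication, had 515 and 493 units in double-mutant, 557 and 537 in Aiolos single-mutant, 571 and 602 in OBF-1 single-mutant and 628 and 586 in wild type cells. The double-mutant arrays were the lowest, at a difference of -0.27 that did not pass (limma adjusted p = 0.0983). Dnmt3a, which places new methylation, had 277 and 284 units in double-mutant, 266 and 259 in Aiolos single-mutant, 278 and 225 in OBF-1 single-mutant and 271 and 270 in wild type cells by its brightest probe set, a difference of 0.05 in the double mutant. Of its 4 dimmer probe sets, 3 were called higher in the double mutant, at 0.43, 0.39 and 0.51 (limma adjusted p = 0.0159, 0.0372 and 0.0154), and the fourth gave 0.29. The result for Dnmt3a thus rested on which probe set was read. Dnmt3b was not called. Among the genes for lysine 9 methylation and HP1, Ehmt2 (G9a) was 0.28 in the double mutant, and Cbx1 (HP1 beta) was -0.40 in the Aiolos single mutant, with neither passing (limma adjusted p = 0.123 and 0.0839). Cbx5 (HP1 alpha) was -0.24 in the Aiolos single mutant and did not pass, and its dimmer probe sets did not all share that direction. The acetyltransferase genes Crebbp and Kat2a (Gcn5) were within 0.21 of wild type in every mutant by the probe set read. A dimmer Kat2a probe set had 153 and 133 units in double-mutant against 126 and 99.7 in wild type cells.

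Setting the double mutant against each single mutant asked what the loss of the second factor added. Against the Aiolos single mutant, within 1 station, 1 of the 43 genes was called (Cbx2, background 3.41%). Of the 43, 33 lay above 0, against 5308 of all 12393 genes. The median was 0.10, against -0.03 over all genes. Against the OBF-1 single mutant 2 were called (Mta3 and Hdac7, background 2.9%). The test of the interaction, the double-mutant change minus the sum of both single-mutant changes, called none of the 43 (background 0.161%), and 4 had an unadjusted p under 0.05 (9.3%, against 11.7% of all genes). These were Hdac2 at 0.69 (limma adjusted p = 0.26), Eed at 0.49 (0.289), Kat2a at 0.39 (0.336) and Hdac7 at 0.34 (0.408). For none of the 43 was the double-mutant change shown to differ from the sum of the single-mutant changes, and the interval for Hdac2 reached 1.12.

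Each loss was also averaged over both states of the other gene, a comparison added after the data had been seen, which rests on all 8 arrays. Loss of OBF-1, here always within a station, called 3 of 43 genes higher (6.98%, background 5.7%): Hdac5 at 0.51 (95% interval 0.30 to 0.72, limma adjusted p = 0.00891), Cbx2 at 0.41 (0.25 to 0.57, adjusted p = 0.00504) and Ezh1 at 0.29 (0.14 to 0.44, adjusted p = 0.0304). None was lower. Hdac5 and Cbx2 kept their call whichever array was left out, and Ezh1 kept it in 1 of 8 such fits. Loss of Aiolos, across stations, called 5 (11.6%, background 6.36%): Hdac7 at 0.34 was higher, Mta3 at -0.48, Rbbp7 at -0.35 and Cbx1 at -0.29 were lower, and the brighter probe set of Smarce1 was higher at 0.27 (limma adjusted p from 0.00296 to 0.0397). With all probe sets of Smarce1 averaged the sign turned (-0.27, limma adjusted p = 0.0229), so that its place among the 5 says nothing of the level of its transcript. Of these Mta3 kept its call whichever array was left out, and the others kept it in 1 to 3 of 8 fits. Cbx1 had 253 and 284 units in double-mutant, 227 and 269 in Aiolos single-mutant, 308 and 303 in OBF-1 single-mutant and 323 and 326 in wild type cells. A second of its probe sets was also called lower (-0.36, limma adjusted p = 0.0159), and the remaining 3 lay between -0.06 and 0.13. The suffixes of the probe sets read for Rbbp7 and Cbx1 mark a possible cross-hybridisation.

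**Figure D3:**
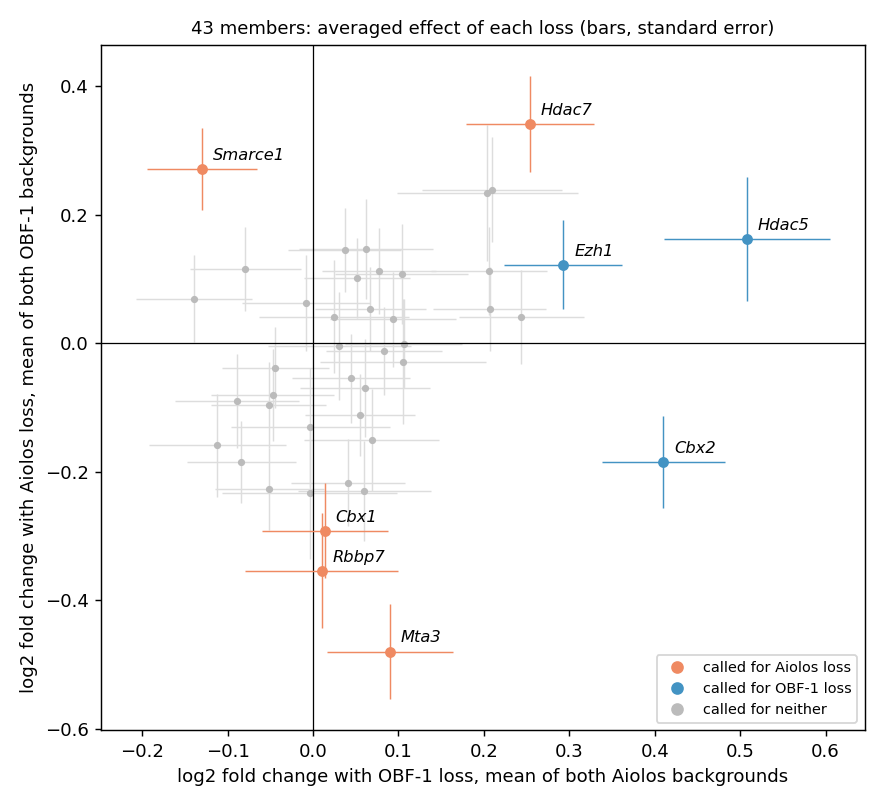
Log2 fold change with OBF-1 loss averaged over both Aiolos backgrounds (x axis) against that with Aiolos loss averaged over both OBF-1 backgrounds (y axis) for the 43 genes; bars are standard errors and colours show for which loss a gene was called. Hdac5, Cbx2 and Ezh1 lie to the right at 0.29 to 0.51, and Mta3 lies lowest at -0.48.

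Markers of dividing cells moved with Aiolos loss as well. The 13 measured of 14 listed summed to 4737 and 5524 units in double-mutant, 5175 and 5204 in Aiolos single-mutant, 6119 and 6405 in OBF-1 single-mutant and 5967 and 5962 in wild type cells. With Aiolos loss averaged, 9 of the 13 were called lower and all 13 lay below 0, with a median of -0.32. Against wild type none of them was called in the double mutant and 12 lay below 0. With OBF-1 loss averaged 1 was called higher. Of the 43 chromatin genes 23 lay below 0 and 20 above with Aiolos loss averaged, and of all 12393 genes 5585 lay below. Mta3, Rbbp7 and Cbx1 were called in the direction of the cycling markers, and Hdac7 and the brighter Smarce1 probe set in the other. The part of the cycling markers in the values of these genes was not tested.

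**Figure D4:**
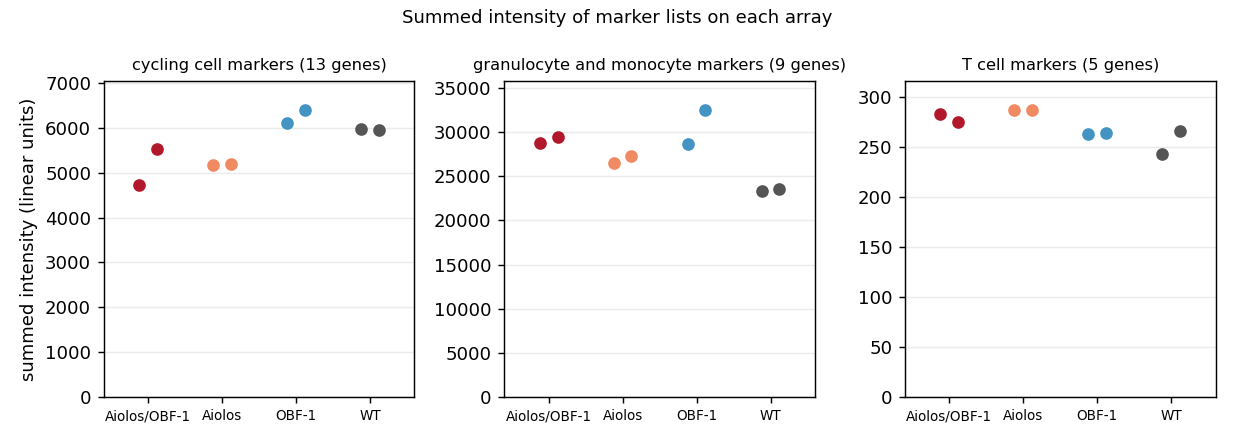
Summed intensity in linear units (y axis, from 0) of 13 markers of cycling cells, 9 of granulocytes and monocytes and 5 of T cells on each array of the 4 genotypes (x axis); points are arrays. Cycling markers sum to 4737 to 5524 units on the 4 arrays lacking Aiolos, against 5962 to 6405 on the others, and granulocyte and monocyte markers are lowest in wild type.

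A wider list of 129 other chromatin genes, of which 95 were measured, had 7 genes called higher and 2 lower in the double mutant (9.47%, background 9.03%). In Aiolos single-mutant cells 1 was higher (1.05%, background 1.78%), and in those without OBF-1 alone 1 was higher and 3 were lower (4.21%, background 2.28%). The largest change of the list was that of Zfpm1, which encodes the GATA cofactor FOG1, a protein known to bind NuRD. It had 97.0 and 90.7 units in double-mutant, 1066 and 1004 in Aiolos single-mutant, 69.4 and 113 in OBF-1 single-mutant and 892 and 864 in wild type cells. All 4 arrays lacking OBF-1 were thus far below the others, at -3.31 in the OBF-1 single mutant against wild type (limma adjusted p = 7.62e-07) and -3.46 in the double against the Aiolos single mutant (adjusted p = 4.54e-07). Prmt1, an arginine methyltransferase, had 124 and 91.5 units in double-mutant, 186 and 348 in Aiolos single-mutant, 71.1 and 93.5 in OBF-1 single-mutant and 101 and 116 in wild type cells. It was higher only where Aiolos alone was missing, on arrays that differed widely, at 1.23 against wild type (limma adjusted p = 0.0287), and the double mutant was -1.26 against the Aiolos single mutant (adjusted p = 0.0152). Mbd4, a glycosylase that binds methylated CpG and repairs mismatches there, was lower without OBF-1. It had 268 and 245 units in double-mutant, 478 and 464 in Aiolos single-mutant, 290 and 267 in OBF-1 single-mutant and 623 and 440 in wild type cells, at -0.91 in the OBF-1 single mutant (limma adjusted p = 0.00498) and -0.88 in the double mutant against the Aiolos single mutant (adjusted p = 0.00434). Chd7, a chromodomain remodeller, was 0.71 higher in the double mutant (limma adjusted p = 0.00203), as was Smarca2, the Brm ATPase that can take the place of Brg1, at 0.62 (adjusted p = 0.00511). Hdac11, the class IV deacetylase, had 167 and 140 units in double-mutant, 143 and 149 in Aiolos single-mutant, 258 and 265 in OBF-1 single-mutant and 187 and 183 in wild type cells. It was called higher in the OBF-1 single mutant (0.50, limma adjusted p = 0.0243) and lower in the double mutant than there (-0.77, adjusted p = 0.00145).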

How the data were processed

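Labelled RNA of 8 samples was hybridised to MOE430A arrays. The authors deposited intensity values made, per the labels, with RMA, a method of background correction, quantile normalization and summary over the probes of each set. The version of RMA is not given in the sources used here, and the study's methods name other software for its own analysis. The deposited intensities are linear, so their log2 was taken. RMA is known to compress changes of low signals. No sample column was left unmapped.

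Of 22690 probe sets 64 controls were left out. Gene names came from the platform annotation: 20380 probe sets had 1 symbol, 691 several and 1555 none, and 20351 were matched to RefSeq by gene number. For each gene the probe set with the highest mean was read, and others are given for part of the genes only. limma 3.58.1 in R 4.3.3 was fitted to all 8 arrays with 1 mean per genotype (4 residual and 7.69 prior degrees of freedom) and was tested on simulated data. With 2 arrays per genotype the number of arrays limits the precision, and the standard error of a log2 difference was 0.09 to 0.15. Arrays of 1 genotype correlated with an r of 0.9961 to 0.9965.

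Named genes were those called, the largest change of each group of genes in each mutant, and Chd4, Hdac1, Hdac2, Sin3a, Ezh2, Smarca4 and Dnmt1. The genes, groups and marker lists were chosen with earlier results of these data known. Alternatives were other normalizations, a filter on low signal, other variance settings, a replicate block, the average over a gene's probe sets, leaving out each array, and the methods' threshold of a 3-fold change with an unadjusted p under 0.05.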

Additional observations from a re-analysis of the deposited data

Results flagged for a closer look

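For 4 genes every array of the mutant moved one way against its control when the other factor was present and the opposite way when it was absent, and the interaction was tested for each with limma over all probe sets. Hdac2 was lower in the Aiolos single mutant than in wild type and higher in the double than in the OBF-1 single mutant, with an interaction of 0.694 on the log2 scale (unadjusted p = 0.00385, adjusted p = 0.26). Eed was lower than wild type in either single mutant and higher in the double mutant than in either, with an interaction of 0.487 (unadjusted p = 0.00594, adjusted p = 0.289). Kat2a gave 0.386 for Aiolos loss (unadjusted p = 0.0147, adjusted p = 0.336), and Hdac1 gave 0.164 for OBF-1 loss (unadjusted p = 0.218, adjusted p = 0.623). None of the 4 passed after adjustment. Hdac2 was under 100 units on all arrays.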

How the results depend on the processing

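Numbers of chromatin genes called are given here with the number under the reported settings in brackets. The share of all genes called was not counted under these alternatives. A shift can therefore not be read as particular to the chromatin genes. In the double mutant against wild type (5), 8 were called among probe sets of at least 100 units in a genotype. In the Aiolos single mutant against wild type (1), quantile normalization gave 0. In the double mutant against the Aiolos single mutant (1), centring arrays on their median gave 2, and the filter on low signal, a trended and robust prior, and the mean of all probe sets gave 3 each. In the double mutant against the OBF-1 single mutant (2), fitting only those genotypes gave 1. With OBF-1 loss averaged (3), the trended and robust prior gave 6 and the mean of all probe sets 5. Without moderation of variances, which leaves 4 residual degrees of freedom, 0 were called in each of these comparisons and with Aiolos loss averaged (5), and 0 reached the methods' 3-fold threshold. Why these numbers moved was not tested, apart from the degrees of freedom. Smarce1 turned round with Aiolos loss averaged when all its probe sets were averaged (-0.268, limma adjusted p = 0.0229). The interaction called 0 under every alternative.

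Leaving out each array in turn gave 0 to 5 in the double and 0 to 1 in the Aiolos single mutant against wild type, 0 to 1 in the OBF-1 single mutant (0 reported), 0 to 2 and 0 to 1 in the double mutant against the Aiolos and OBF-1 single mutants, 2 to 3 with OBF-1 loss and 1 to 5 with Aiolos loss averaged. Against wild type in the double mutant, Hdac7 lost its call without wild type replicate 2 (adjusted p = 0.0514), Hdac5 without that array or double-mutant replicate 1, and Bmi1, Ezh1 and Mta3 without 3, 4 and 6 of the 8 arrays, each keeping its direction.

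The replicate numbers do not pair the arrays: over 6 pairs of genotypes the deviations correlated from -0.088 to 0.103, and 1 pair exceeded 0.1. With a replicate block 1 gene was called for OBF-1 against wild type and 2 for double against Aiolos mutants, and the other numbers did not change. Limits are 2 arrays per genotype, the station shared with Aiolos loss, and granulocyte and monocyte markers that are lowest in wild type. A further limit is probe sets that disagree, among others for Smarce1, Chd4, Dnmt3a, Rbbp7, Smarca4, Cbx2, Cbx1, Ctbp2, Cbx5 and Suz12.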

Other observations

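In the gene order of RefSeq, Smarce1 lies 23 and Cbx1 50 protein-coding genes from Ikzf3 on chromosome 11, and these were the nearest of 7 such genes on that chromosome. With Aiolos loss averaged, 2 of those 7 were called, against 71 of 1023 genes measured on the chromosome (6.94%) and 701 of 11132 on others (6.3%). In the double mutant against wild type, 2 of the 7 were called, Hdac5 and Ezh1. The background was 86 of 1023 genes on the chromosome (8.41%) and 1008 of 11132 on others (9.05%). In the Aiolos single mutant 0 of the 7 were called. This was looked at after the values were known. Whether the position bears on these calls or on the opposite readings of the Smarce1 probe sets was not tested.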
